A study of Mus musculus with 4 samples.

Results

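The genes described here are 33 markers: 13 of blood and lymphatic endothelium and 20 of blood cells. They were read in mouse embryonic fibroblast cultures that had been depleted of cells carrying CD31 or CD45. Each was taken as the brightest probe set that the platform annotation assigns to that symbol alone. Of the 33, 32 had such a probe set, among 19751 genes in all, and Hba-a1 was read by probe sets that it shares with Hba-a2. RNA was measured on 4 one-colour Affymetrix gene arrays, 2 from Pdpn KO cultures (genotype Pdpn-/-) and 2 from wild-type (WT) cultures, which the labels call biological replicates. Embryos (strain C57BL6/J in the labels) were taken between embryonic day 9.5 and day 13.5, and their cells were grown for 7 to 10 days in medium with 10% fetal calf serum. Cultures of both genotypes were then depleted of cells carrying CD31 or CD45 with biotinylated antibodies on magnetic columns. No culture measured before depletion was analysed here, so the values show what was read after it and not how much was taken away. How many embryos or litters gave each culture is not given in the sources used here, and p-values therefore measure only the spread between these samples, which may be technical.

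CD31, the product of Pecam1, is an adhesion molecule at the contacts of endothelial cells that is also carried by platelets and some leukocytes, and CD45, the product of Ptprc, is a tyrosine phosphatase of the leukocyte surface. An embryo dissociated at these stages holds vessels, yolk sac-derived macrophages and primitive red cells as well as mesenchyme, and each of these cell types can enter a fibroblast culture. Mature red cells carry neither antigen, and endothelial or blood cells lower their surface antigens to differing degrees in culture, so several markers per cell type are needed to follow depletion. Podoplanin, the protein missing in the knockout, is itself a marker of lymphatic endothelium as well as of fibroblasts.

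The knockout was seen in both Pdpn KO arrays, where Pdpn read 179 and 201, against 4486 and 3106 in the WT arrays (log2 difference -4.30 ± 0.19, SE; limma adjusted p = 0.00501). All 4 samples are labelled female, but 3 arrays had the pattern of male cells. Eif2s3y, a Y-linked translation factor gene, read 1673 in Pdpn KO replicate 1 and 35.1 in Pdpn KO replicate 2, against 1534 and 1474 in WT replicates 1 and 2. Xist, the RNA of the inactive X chromosome, read 48.9 and 1831 in Pdpn KO replicates 1 and 2, against 48.6 and 57.4 in the WT replicates. Pdpn KO replicate 2 was thus the only array without the male pattern. In what sets this array apart, a difference of sex cannot be told from other differences. The genotypes were therefore not matched for sex by this pattern, and its part in the differences below was not tested. Of 17 fibroblast genes with a probe set, 15 lay above the off-tissue range defined below, against 55.5% of all genes. Vim (vimentin) and Fn1 (fibronectin) were above the 99th percentile of all genes on each array. Lum and Fap were not above the range, at the 15.9 and 29.2 percentile on average. The arrays were not alike at the low end. The 25th percentile of intensity over genes was 111 and 119 in Pdpn KO replicates 1 and 2, and 110.2 and 122 in WT replicates 1 and 2, so dim genes tended to read higher on the arrays numbered 2.

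Some promoters of these markers share a motif of the ETS family, to which the members Erg and Spi1 (PU.1) belong, and the sequences are shown because these factors are known for driving endothelial and leukocyte genes. RefSeq promoter windows of GRCm38.p6 covered 21 of the 33 members in 30 windows, and only the 250 bases before each start were searched. The letters AGGAAGT, or ACTTCCT on the other strand, were in 8 of the 30 windows (26.7%), against 7.69% of all 32851 windows. By gene, 6 of 21 members (28.6%) held it in at least 1 window, against 8.80% of 27025 genes. These were Eng, Egfl7, Ptprc, Mrc1, Lyz2 and Cd3e. The windows of 4 of them are given 5′ to 3′ in the direction of the gene, with the motif in capitals.
Eng (chr2:32646345-32646594, plus strand): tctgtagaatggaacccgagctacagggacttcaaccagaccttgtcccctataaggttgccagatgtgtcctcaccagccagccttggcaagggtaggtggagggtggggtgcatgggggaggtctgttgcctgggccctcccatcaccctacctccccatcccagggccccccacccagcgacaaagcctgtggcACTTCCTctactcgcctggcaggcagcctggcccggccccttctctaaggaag
Ptprc (chr1:138175306-138175555, minus strand): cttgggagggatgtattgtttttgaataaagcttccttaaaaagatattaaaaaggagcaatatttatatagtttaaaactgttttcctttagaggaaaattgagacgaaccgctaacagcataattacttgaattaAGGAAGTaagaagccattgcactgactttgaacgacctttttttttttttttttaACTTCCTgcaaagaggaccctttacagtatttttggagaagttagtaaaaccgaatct
Lyz2 (chr10:117282273-117282522, minus strand): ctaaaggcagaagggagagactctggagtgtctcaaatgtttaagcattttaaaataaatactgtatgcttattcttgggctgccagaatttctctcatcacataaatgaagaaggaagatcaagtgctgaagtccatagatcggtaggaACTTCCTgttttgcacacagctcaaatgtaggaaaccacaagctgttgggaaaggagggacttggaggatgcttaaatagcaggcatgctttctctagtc
Cd3e (chr9:45009612-45009861, minus strand): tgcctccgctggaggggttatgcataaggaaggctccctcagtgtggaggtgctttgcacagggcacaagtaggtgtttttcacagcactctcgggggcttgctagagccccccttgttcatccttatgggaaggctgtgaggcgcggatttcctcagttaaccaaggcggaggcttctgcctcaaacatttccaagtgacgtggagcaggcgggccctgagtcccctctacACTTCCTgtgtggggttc
Of the 6 genes with these letters, Eng and Egfl7 were above the off-tissue range defined below, and Ptprc, Mrc1, Lyz2 and Cd3e were not. CG pairs, which are dense in CpG islands, numbered 1 to 24 in the members' windows with a median of 5, against a median of 6 over all windows. The windows of Gata2 held 22 and 24 of them and that of Eng 4, although both genes were bright. A match describes the letters only, and windows of 1 gene are not independent of each other.

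After depletion, 6 of 32 markers were read above the range of genes from unrelated tissues on every array, and 26 were not. The count depends on the line drawn, since 19 of 32 lay above the median of those unrelated genes on every array. Because RMA values carry no detection call, a scale was taken from 32 genes of tissues that a fibroblast culture does not hold, such as photoreceptors, sperm, pancreas, adult liver and pituitary (36 were listed). Their 90th percentile was an intensity of 192 and 227 in the Pdpn KO arrays and 187 and 240.4 in the WT arrays, which lay between the 39.1 and 43.8 percentile of all genes. A marker was counted as above the off-tissue range where it exceeded this value on every array. By that count 26 of 32 markers were not above the range and 6 were: Eng, Gata2, Cd68, Egfl7, Cx3cr1 and Cldn5. Over all genes, 55.5% were above it. Of the other marker genes listed for comparison, 15 of 17 fibroblast genes passed the same line. So did 4 of the 32 off-tissue genes. Since the line was drawn from these off-tissue genes, their count was largely set by its definition and is no benchmark. For further scale, Xist lay between the 9.74 and 10.9 percentile on the 3 arrays with the male pattern, and on Pdpn KO replicate 2 the Y-linked Eif2s3y, Uty and Kdm5d lay at the 5.93, 6.15 and 20.5 percentile. Probe sets differ in affinity, so a percentile places a probe set among the others and does not give the number of transcripts. In these bulk samples, fewer cells of a type and less RNA per cell cannot be told apart.

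**Figure D1:**
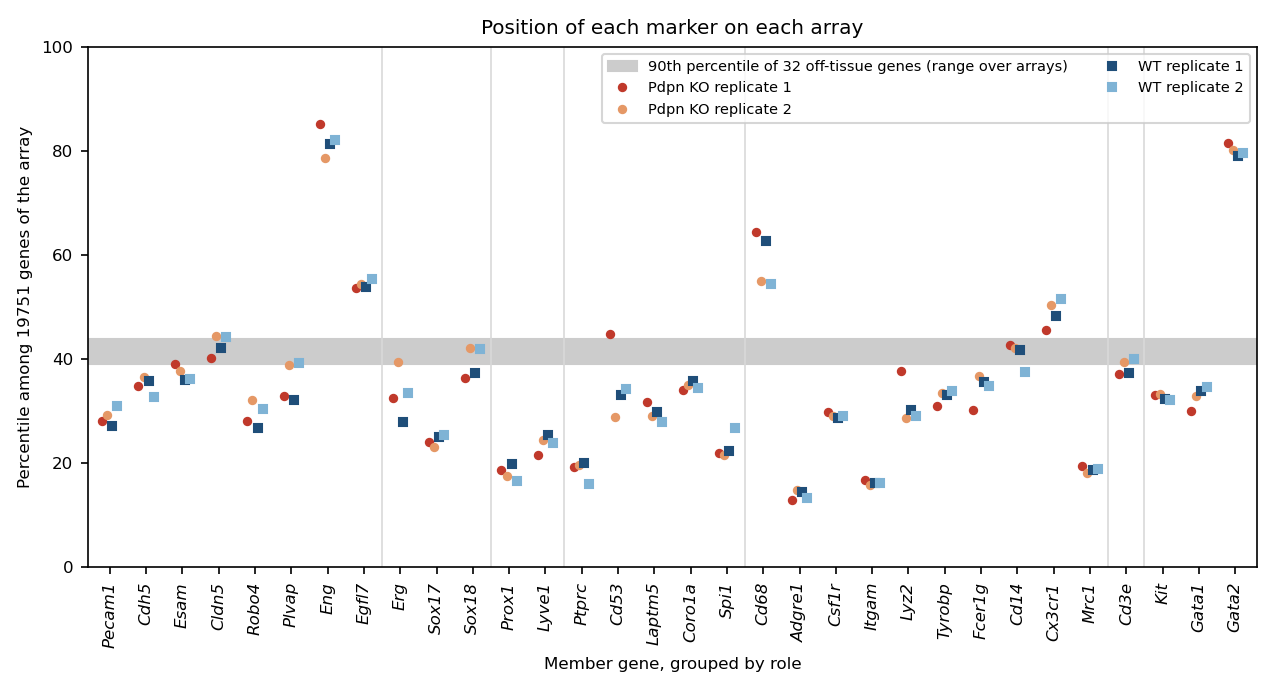
Each of the 32 measured markers is placed by its percentile among the 19751 genes of each array (vertical axis), with circles for the Pdpn KO arrays and squares for the WT arrays, grouped by role along the horizontal axis. The grey band is the 90th percentile of 32 off-tissue genes, from 39.1 to 43.8 over the arrays. Eng, Gata2, Cd68, Egfl7 and Cx3cr1 stand above the band on every array, and most other markers below it.

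Of 8 endothelial adhesion and surface genes, 5 were dim, and Eng, Egfl7 and Cldn5 were above the off-tissue range. Pecam1 (probe set 10392221, chromosome 11 band E1), which encodes the CD31 antigen used for depletion, read 124 and 141 in the Pdpn KO arrays and 121 and 154 in the WT arrays, between the 27.2 and 31.0 percentile. The genotypes overlapped, and the same held for Cdh5, VE-cadherin of endothelial adherens junctions, with 159 and 182 in Pdpn KO and 165 and 163 in WT. Robo4, an endothelial guidance receptor, read 125 and 156 in Pdpn KO and 119 and 150.4 in WT. Plvap, which forms the diaphragms of endothelial fenestrae, read 149.7 and 198 in Pdpn KO and 145.0 and 204 in WT, so that in both genotypes replicate 2 was the higher. Esam, an adhesion molecule of endothelial tight junctions and platelets, was one of 4 members whose genotypes did not overlap, with 188 and 191 in Pdpn KO above 167 and 183 in WT. Values did not overlap in either direction for 24.4% of all genes, and 14.6% had both values of Pdpn KO above both of WT.

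Cldn5, the claudin of endothelial tight junctions, lay just above the off-tissue range, at 197 and 247 in Pdpn KO and 209.8 and 245 in WT. On the array where it came closest, it exceeded the line by 0.03 on the log2 scale, and the next marker below, Sox18, missed it by 0.18 at most. Egfl7, a secreted protein of developing vessels whose locus also holds miR-126, read 389 and 382 in Pdpn KO and 374 and 394 in WT. It varied by no more than 1.05-fold over the 4 arrays. Eng (probe set 10471486, chromosome 2 band B) encodes endoglin, a co-receptor for TGF-beta and BMP ligands that is strongest on endothelium and is also known from mesenchymal stromal cells. Its intensity was 1829.7 and 1235 in Pdpn KO and 1461 and 1437 in WT, at the 81.8 percentile on average (SD 2.68 over 4 arrays). The Pdpn KO arrays held both its highest and its lowest value.

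The endothelial transcription factors among the markers, Erg, Sox17 and Sox18, were not above the off-tissue range, whereas Fli1, Ets1 and Tal1 of the further vascular genes described below were. Tal1 was nevertheless below the brightest off-tissue gene on every array, with 232 and 309 in Pdpn KO and 233 and 301 in WT. Erg, an ETS factor that maintains endothelial identity, read 148 and 202 in Pdpn KO and 124 and 168 in WT. Each Pdpn KO array was higher than the WT array of the same number, the groups overlapped, and its log2 difference of 0.26 ± 0.21 (SE) was the largest of the 32 in size (limma unadjusted p = 0.248; adjusted p = 1.00). Sox17, known for arterial endothelium, read 107 and 110.3 in Pdpn KO and 110.0 and 124 in WT. Sox18, needed for lymphatic specification, read 169.5 and 225 in Pdpn KO and 176 and 225 in WT, and here too the replicates numbered 2 were higher in both genotypes.

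Both lymphatic markers were dim. Prox1, the transcription factor that sets lymphatic identity, read 84.1 and 85.2 in Pdpn KO and 88.9 and 83.2 in WT, between the 16.5 and 19.8 percentile. Lyve1, a hyaluronan receptor of lymphatic endothelium and of some tissue macrophages, read 96.0 and 117 in Pdpn KO and 112 and 117 in WT. The genotypes overlapped for both. In the WT cultures, Pdpn itself lay at the 96.4 and 93.3 percentile, on arrays where these lymphatic genes were below the 26th.

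Pan-leukocyte genes were dim, with 1 array apart for Cd53. Ptprc (probe set 10358224, chromosome 1 band E4), which encodes the CD45 antigen used for depletion, read 86.5 and 94.9 in Pdpn KO and 89.96 and 80.6 in WT, between the 16.0 and 20.02 percentile. Spi1, the ETS factor PU.1 of myeloid and B cells, read 97.1 and 104 in Pdpn KO and 99.3 and 131 in WT. Coro1a, an actin-binding coronin of leukocytes, and Laptm5, a lysosomal protein of haematopoietic cells, lay between the 27.9 and 35.9 percentile on each array. Cd53, a leukocyte tetraspanin, read 242 and 139.7 in Pdpn KO and 150.2 and 173 in WT. Its value in Pdpn KO replicate 1 was 1.73-fold that in Pdpn KO replicate 2, and the other 3 arrays lay closer together.

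Most macrophage and myeloid genes were also dim, Cd68 and Cx3cr1 being the exceptions among 10. Adgre1, the F4/80 antigen of mouse macrophages, was the dimmest of all 32, at 60.2 and 73.4 in Pdpn KO and 67.5 and 67.7 in WT. Csf1r, the receptor that macrophages need to survive, read 133 and 141 in Pdpn KO and 127 and 143 in WT. Itgam, the integrin chain CD11b, and Mrc1, the mannose receptor of tissue macrophages, lay between the 15.9 and 19.5 percentile on each array. Tyrobp and Fcer1g are adaptors that signal for several activating receptors. Tyrobp read 139 and 163 in Pdpn KO, against 149.6 and 170.4 in WT. Fcer1g read 135 and 184 in Pdpn KO, against 165 and 176 in WT. Cd14, the lipopolysaccharide co-receptor, read 219 and 223 in Pdpn KO and 206 and 192 in WT. Its genotypes did not overlap, and it was above the off-tissue line on the arrays numbered 1 and below it on the others.

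Lyz2, lysozyme of macrophages and neutrophils, read 179 and 138 in Pdpn KO and 135 and 143 in WT, with Pdpn KO replicate 1 above the other 3 arrays as for Cd53. Its probe set may also read the closely similar Lyz1. By intensity that array was the highest for 5 of 19 blood cell markers: Cd53, Lyz2, Laptm5, Cd68 and Gata2. By percentile it was the highest for 9 of the 19, and for 6 of the 10 macrophage and myeloid genes, Csf1r and Itgam among them. Over all genes it was the highest by percentile for 4340 of 19751. In the further macrophage and myeloid list described below it was so for 4 of 24, so the 6 of 10 did not extend to that list. Cd68, a lysosomal glycoprotein that is abundant in macrophages and is also known from other cells with many lysosomes, fibroblasts among them, read 672 and 394 in Pdpn KO and 599.6 and 377 in WT. The replicates numbered 1 were higher in both genotypes, and the values spanned 1.78-fold, more than any other member. Cx3cr1, the fractalkine receptor of monocytes and microglia, read 252 and 317 in Pdpn KO and 280.3 and 331 in WT, with the replicates numbered 2 higher. It exceeded the 90th percentile of the off-tissue genes on each array but not the brightest of them, which read 275 and 347 in the Pdpn KO arrays and 298 and 364 in the WT arrays.

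**Figure D2:**
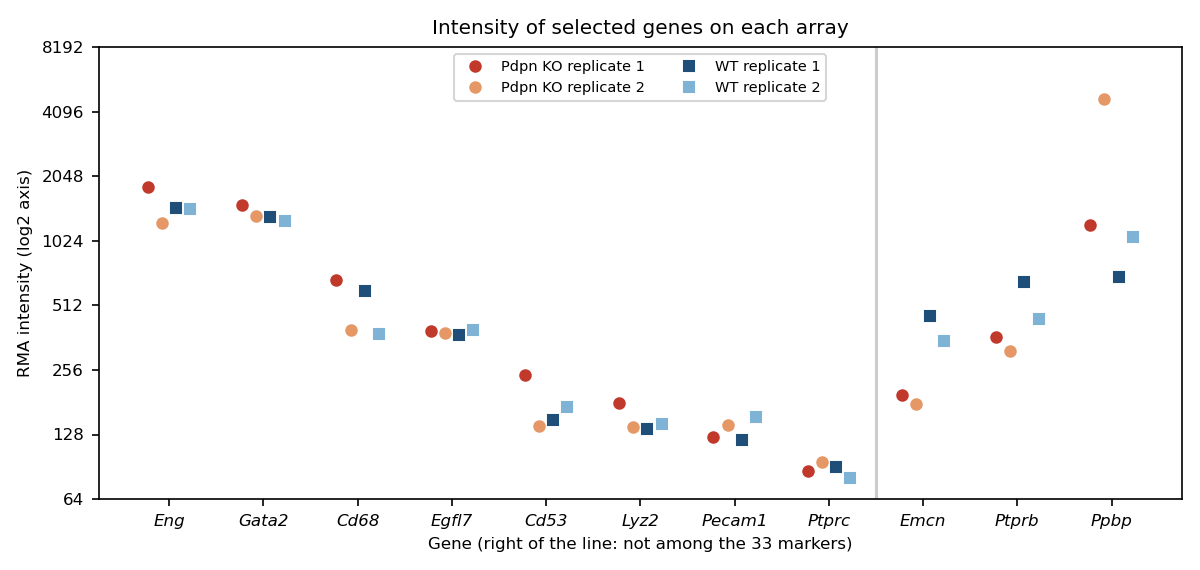
RMA intensity on a log2 axis for 8 markers and 3 other genes, with circles for Pdpn KO arrays and squares for WT arrays. Cd53 and Lyz2 are highest in Pdpn KO replicate 1 (242 and 179), Cd68 is higher in the replicates numbered 1 of both genotypes, and Emcn and Ptprb are lower in both Pdpn KO arrays than in both WT arrays.

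Among the lymphoid, progenitor and erythroid markers with a probe set of their own, Gata2 was bright. Cd3e, a chain of the T cell receptor complex, read 175 and 202 in Pdpn KO and 175 and 210.4 in WT. Kit, the stem cell factor receptor of progenitors, mast cells and germ cells, read 150.2 and 162 in Pdpn KO and 146 and 160.4 in WT. Gata1, the factor of red cells, megakaryocytes and mast cells, read 134 and 160 in Pdpn KO and 154 and 174 in WT. Gata2 (probe set 10539873, chromosome 6 band D1), which acts in blood stem cells, mast cells and endothelium and is also expressed in several other embryonic tissues, read 1504 and 1332 in Pdpn KO and 1317 and 1270.0 in WT. Its Pdpn KO values exceeded the WT values, with a log2 difference of 0.13 ± 0.12 (SE; limma adjusted p = 1.00), and all 4 arrays lay between the 79.1 and 81.5 percentile. The 2 probe sets shared by Hba-a1 and Hba-a2, the adult alpha-globin genes, differed from each other. The dimmer read 110.2 and 117 in Pdpn KO and 90.2 and 173 in WT, and the brighter 331 and 402 in Pdpn KO and 311 and 384 in WT. The brighter exceeded the off-tissue line and the brightest off-tissue gene on every array, but is not among the 32 markers counted. Probe sets shared by the adult beta-globin genes were dim. The dimmer read 20.1 and 22.4 in Pdpn KO and 17.5 and 18.2 in WT. The brighter of these read 123 and 124 in Pdpn KO and 121 and 148 in WT. The embryonic globin genes Hba-x, Hbb-y and Hbb-bh1 were not above the line.

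The levels in order were led by Eng at the 81.8 percentile (SD 2.68 over 4 arrays) and Gata2 at 80.1 (SD 0.992), which did not differ beyond their spread. They were followed at a distance by Cd68 at 59.2 (SD 5.21) and Egfl7 at 54.3 (SD 0.738), again within their spread, and by Cx3cr1 at 49.0 (SD 2.61) and Cldn5 at 42.8 (SD 1.99). The other 26 had means from 13.9 to 41.0. The median member lay at 33.1, against 28.9 for the off-tissue genes.

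The array that read highest was mostly a replicate numbered 2, as for dim genes at large. Of the 32 markers, 6 were highest in Pdpn KO replicate 1, 11 in Pdpn KO replicate 2, 1 in WT replicate 1 and 14 in WT replicate 2. Among the 8796 genes of the whole table that were not above the off-tissue range, the shares were 10.7% and 29.0% for Pdpn KO replicates 1 and 2 and 13.6% and 46.7% for WT replicates 1 and 2. By percentile, the counts were 11 and 8 for Pdpn KO replicates 1 and 2 and 4 and 9 for WT replicates 1 and 2. Among the 8796 genes they were 1839 and 2300 for the Pdpn KO replicates and 2225 and 2432 for the WT replicates. For the 32 off-tissue genes they were 2 and 12 in Pdpn KO and 4 and 14 in WT. For those genes, the percentile did not take out the shift between arrays. Summed intensity of the 13 endothelial markers was 3765 and 3471 in Pdpn KO and 3372 and 3648 in WT, and that of the 19 blood cell markers 4641 and 4306 in Pdpn KO and 4321 and 4284 in WT. Single bright genes weighed heavily in both sums. Eng gave 1829.7 and 1235 in Pdpn KO and 1461 and 1437 in WT. Gata2 gave 1504 and 1332 in Pdpn KO and 1317 and 1270.0 in WT. For the 26 markers not above the off-tissue range the sum was 3562 and 3871 in Pdpn KO and 3450.3 and 3877 in WT, higher in the replicate numbered 2 of each genotype. The part of the low-end shift between arrays in these sums was not tested.

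No marker differed between the genotypes past the threshold. In limma over 19751 genes, 0 of 32 markers passed an adjusted p of 0.05, where 0.0101% of all genes did, and 0 had an unadjusted p under 0.05, against 2.01% of all genes. The smallest unadjusted p was 0.220, for Cd14, and all 32 had an adjusted p of 1.00. The log2 differences ran from -0.19 for Spi1 to 0.26 for Erg, with 15 higher and 17 lower means in Pdpn KO and a median of -0.01, against 0.00 over all genes. For 4 of 32 members (Esam, Laptm5, Cd14 and Gata2) the lower of the Pdpn KO values exceeded the higher of the WT values, and 0 members had the opposite order, against 14.6% and 9.74% of all genes. Laptm5 read 143 and 140.3 in Pdpn KO and 133 and 136 in WT. A p that misses the threshold does not show equal levels. The 95% intervals of the 32 log2 differences reached from -0.62 to 0.85, both for Cd68, and for the depletion antigens they ran from -0.41 to 0.34 for Pecam1 and from -0.21 to 0.38 for Ptprc. RMA compresses low values, so a change in a dim gene is understated on this scale. Leaving out 1 array, which leaves 1 genotype with a single array assumed to vary like the other genotype, gave 1 or 2 members an unadjusted p under 0.05, and 0 an adjusted one. The values of these members turned on the array left out. Cd53 had a log2 difference of 0.58 without Pdpn KO replicate 2, against -0.21 when replicate 1 of that genotype was left out. Cd68 had 0.50 without Pdpn KO replicate 2, -0.27 without Pdpn KO replicate 1 and -0.22 without WT replicate 2. Erg had 0.49 without Pdpn KO replicate 1 and 0.48 without WT replicate 2, but 0.04 without either of the others. Spi1 had -0.39 without WT replicate 1 and 0.01 without WT replicate 2.

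**Figure D3:**
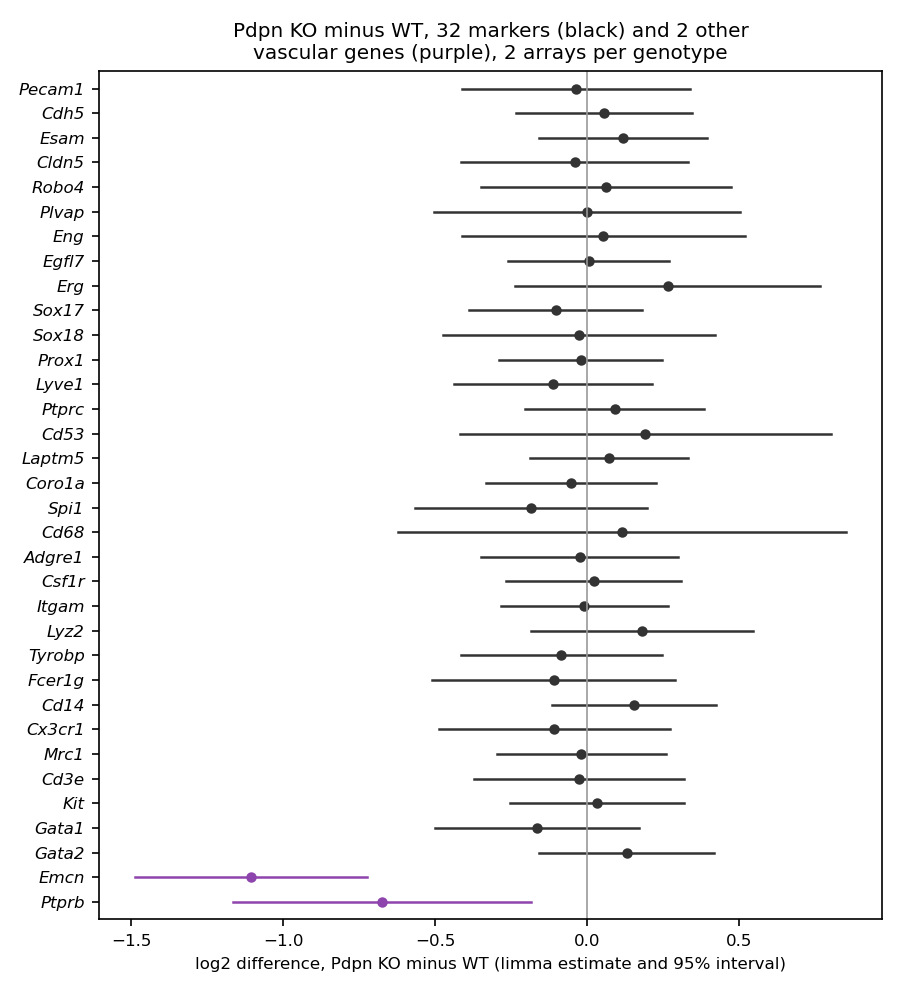
Log2 difference, Pdpn KO minus WT, with its 95% interval from limma for the 32 markers in black and for Emcn and Ptprb in purple (2 arrays per genotype). The interval of each marker crosses 0, while those of Emcn and Ptprb lie below it, and none of the 34 passed an adjusted p of 0.05.

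Other genes of vessels were read in part above the off-tissue range. Of 30 further vascular genes, 14 were above the off-tissue range, and the median gene lay at the 43.3 percentile. The brightest were Rhoj, a GTPase of endothelial and other motile cells, and Efnb2, the ephrin of arteries that mesenchyme also makes, neither of which is confined to endothelium. Also above the range were the VEGF receptors Kdr and Flt1, the factors Fli1, Ets1 and Tal1, and Vwf, Nos3, Notch4, Ecscr, Ephb4, Cd34 and Ptprb. Of these, Tal1, Vwf and Nos3 lay below the brightest off-tissue gene on every array, and Kdr, Notch4 and Ptprb on some arrays. Flt1 read 343 and 677 in Pdpn KO and 482 and 526 in WT. Kdr read 391 and 279.7 in Pdpn KO and 475 and 259.96 in WT, higher in the replicates numbered 1 of both genotypes. The 16 genes not above the range were Emcn, Cd93, Dll4, Aplnr, Tie1, Lmo2, Icam2, Rasip1, Sox7, Gja4, Gja5, Tek, Arhgef15, Myct1, Clec14a and Mmrn2. The angiopoietin receptor Tek read 129 and 141 in Pdpn KO and 122 and 108 in WT. Of 9 further lymphatic genes 5 were above it, led by Foxc2 and Nr2f2, both also mesenchymal transcription factors. Flt4, the receptor of lymphatic growth factors, read 1102 and 544 in Pdpn KO and 1316 and 651 in WT, higher in the replicates numbered 1 of both genotypes.

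In the vascular list 0 of 30 genes passed an adjusted p of 0.05, and 2 had an unadjusted p under 0.05, both with lower means in Pdpn KO. Emcn, a sialomucin of capillary and venous endothelium, read 196 and 177 in Pdpn KO and 459 and 351 in WT, with no overlap. Its log2 difference was -1.11 ± 0.16 (SE; limma adjusted p = 0.570). Without Pdpn KO replicate 1, Pdpn KO replicate 2 or WT replicate 1, its log2 difference was -1.18, -1.03 and -0.91. In each such fit 1 genotype has a single array, which is assumed to vary like the arrays of the other genotype. Ptprb, the endothelial phosphatase VE-PTP, read 364 and 314 in Pdpn KO and 659 and 442 in WT (-0.68 ± 0.20; limma adjusted p = 1.00). Without WT replicate 2 its log2 difference was -0.96 and without WT replicate 1 it was -0.39. Without Pdpn KO replicates 1 and 2 in turn it was -0.78 and -0.57. On the same scale the members Pecam1, Cdh5, Robo4 and Plvap had -0.04, 0.05, 0.06 and -0.00. Whether Emcn or Ptprb differed from these genes in their change was not tested.

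Further blood cell genes were mostly dim. Above the off-tissue range were 3 of 24 macrophage and myeloid genes, 6 of 20 pan-leukocyte genes, 0 of 12 genes of T, B and NK cells, 0 of 9 neutrophil genes, 2 of 11 mast cell and megakaryocyte genes and 3 of 11 erythroid genes. The brightest were Lgals3 (galectin-3) and Mertk (a receptor for dying cells) in the myeloid list, Arhgdib (abundant in blood cells) and Runx1 in the pan-leukocyte list, and Slc25a37 (a mitochondrial iron importer) and Tfrc (the transferrin receptor) in the erythroid list. Which cells of the cultures gave these transcripts was not tested. In the lists without a gene above the range, the brightest were Cd8a and Cd79b, and Elane and Camp. Over these 6 lists 0 genes passed, and 2 had an unadjusted p under 0.05, both in the mast cell and megakaryocyte list. Ms4a2, a chain of the IgE receptor, read 33.2 and 34.1 in Pdpn KO and 47.8 and 44.0 in WT, below the 10th percentile on each array. Ppbp, a platelet chemokine (CXCL7), read 1217 and 4704 in Pdpn KO and 695 and 1062 in WT (1.48 ± 0.58; limma adjusted p = 1.00), and Pdpn KO replicate 2 stood apart. That array was also the only one without the male pattern. Without it the log2 difference was 0.50. Without Pdpn KO replicate 1 it was 2.45, a value in which the array that stood apart is the single Pdpn KO array. The median log2 difference of the 10 comparison lists ran from -0.08 to 0.05. In the fibroblast list S100a4, a calcium-binding protein of motile cells, had the smallest unadjusted p, with 5061 and 5176 in Pdpn KO and 4105 and 4260.4 in WT (0.29 ± 0.11; limma adjusted p = 1.00). Itga2b, the platelet integrin chain CD41, read 272 and 264 in Pdpn KO and 293 and 315 in WT.

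**Figure D4:**
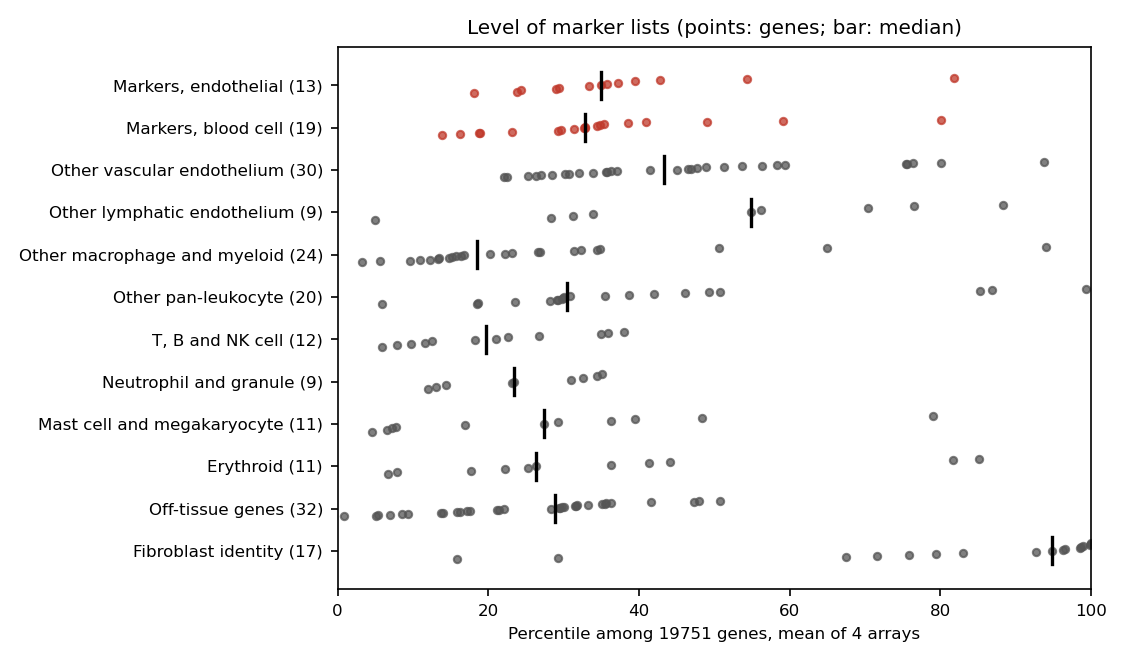
Mean percentile over 4 arrays of each gene (points) and the median of each list (bar), with the number of measured genes in brackets. The endothelial and blood cell markers (red) have medians of 34.9 and 32.8, against 28.9 for the off-tissue genes and 94.8 for the fibroblast genes.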

How the data were processed

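The deposited values were RMA intensities per probe set on a linear scale, and the submitters' processing notes name RMA; software, settings and build are not given there. The authors' 2 deposited tables of 24679 probe sets agree to within 0.005; values come from the series value table. Log2 was taken with no pseudocount or filter. Probe sets with 1 gene symbol in the platform annotation (21354) gave 19751 genes, the probe set with the highest mean being kept for 893 symbols with several. By Entrez identifier 21277 matched RefSeq, with 0 symbols changed.

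A percentile is the rank of a gene's value among the 19751 genes of the array. Genotypes were compared by limma 3.58.1 under R 4.3.3, with moderated two-sided tests and p adjusted by Benjamini-Hochberg across every gene (threshold 0.05), and the fit was tested on simulated data. The ± after a log2 difference is its SE, with 2 arrays per genotype, whose number limits the precision. Members, lists and tests were chosen with earlier results of these data known. Named were all 33 members, the 2 brightest genes and the gene with the smallest unadjusted p of each other list, and any that passed; the genes of the sample checks were also named, and Flt4, Ptprb and the remaining vascular genes were chosen after their values were seen. Figures were drawn with matplotlib 3.10.9.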

Additional observations from a re-analysis of the deposited data

How the results depend on the processing

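In the 12 alternative fits 0 members passed an adjusted p of 0.05 in limma, the smallest being 0.437, while signs of their small differences changed 42 times in 348 values, 17 of them without Pdpn KO replicate 1 and 11 without WT replicate 2. The number of all genes called was 2, against 1 without the dimmer 50% of genes, 9 with an intensity-dependent robust prior, 34 with the replicate number as a block and 5 to 100 with 1 array left out. With the replicate block 1 member (Erg) had an unadjusted p under 0.05, against 0 without it and 1 to 2 with an array left out, and Emcn passed (limma adjusted p = 0.0293, log2 difference -1.11). Deviations of same-numbered arrays from their group means correlated with r = 0.581 over genes, but the labels do not say what a number shares. The median difference of the members, -0.01, ran from -0.07 to 0.06 with an array left out. The count of 6 markers above the off-tissue range was 4 above the brightest off-tissue gene and 19 above the off-tissue median. RMA gives no signal over background, which limits statements on dim genes.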
